A study of Mus musculus with 6 samples.

Results

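The proteasome is the large barrel-shaped protease that degrades ubiquitin-tagged proteins in the cytosol and nucleus. Its core particle is a stack of rings of alpha subunits, which gate the barrel, and beta subunits, of which 3 kinds carry the active sites. A regulatory cap made of a base, with ATPases that unfold the substrate, and a lid, which removes ubiquitin, feeds the core. In cells exposed to interferon, and constitutively in many immune cells, the immunoproteasome genes Psmb8, Psmb9 and Psmb10 supply replacements for the active beta subunits encoded by Psmb5, Psmb6 and Psmb7, which changes the peptides available for MHC class I. The genes described here were all those in the deposited expression table whose identifier follows the Psm naming pattern for core subunits (Psma, Psmb), ATPases (Psmc), other cap subunits (Psmd), activators (Psme), the inhibitor Psmf1 and assembly chaperones (Psmg). The pattern found 48 of 23337 genes and used no measured value.

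The libraries came from CD31+ CD45- cells, labelled blood endothelial cells, sorted from collagenase-digested spleens of C57BL/6 mice, either wild type or Stab1-/-. Stab1 encodes the scavenger receptor stabilin-1, also called Clever-1, and the study asked how it shapes the contact of spleen vessels with lymphocytes. The libraries, named here by the numbers of their data columns, are WT 1, WT 3, WT 4, KO 2, KO 3, KO 4, and values for single libraries follow that order throughout. Ages are not in the labels, and neither is the number of animals behind a library. P-values therefore describe the spread among these 6 libraries only, which may be technical.

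Reads counted to genes numbered 40274424 to 51498038 per library. Stab1 was at 21.6 to 43.6 RPKM (reads per kilobase of gene, scaled to library depth) in wild type and 2.32 to 2.62 in knockout, in the direction of the labels. All 7 endothelial markers examined (Pecam1, Cdh5, Kdr, Tek, Emcn, Eng and Stab2) were at 30.4 RPKM or more in every library, the pan-leukocyte marker Ptprc was at 0.110 or less, and the lymphocyte markers Cd3e and Cd79a were at 0.123 or less and at 0.641 to 1.47. Summed markers of megakaryocytes (5 genes) were at 74.5 to 212 RPKM in wild type and 45.8 to 59.7 in knockout, and those of reticular cells (6 genes) at 67.3 to 136 and 39.0 to 57.7. Neither range overlapped between genotypes, but the reticular sums without Cxcl13 did (23.6 to 60.1 and 24.4 to 38.6 RPKM). In the megakaryocyte list Pf4 and Ppbp did not overlap, and the other 3 genes did. Summed erythroid (23.0 to 83.0 and 11.0 to 49.4 RPKM, 5 genes), macrophage (12.6 to 25.2 and 9.56 to 13.7, 5 genes) and dendritic cell markers (52.8 to 85.9 and 66.0 to 76.3, 3 genes, nearly all Zbtb46) overlapped. None of these marker genes was at 0 in every library, Itgax and Flt3 of the dendritic cell list being at 0.0699 RPKM or less. Dissociation genes (8) summed to 4098 to 4307 RPKM in wild type and 4334 to 4991 in knockout, without overlap. Of this list only Junb was higher in every knockout library, and the other genes overlapped between genotypes. The part of these other transcripts in the results below was not tested. In bulk RNA, fewer cells of a type and less RNA per cell cannot be told apart.

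Psmb5, which encodes the constitutive beta subunit with chymotrypsin-like activity and the main target of the proteasome inhibitor bortezomib, fell in knockout. Its RPKM was 69.7 (WT 1), 63.7 (WT 3) and 72.3 (WT 4) against 35.7 (KO 2), 36.7 (KO 3) and 32.5 (KO 4). The lowest wild-type library lay above the highest knockout library by more than the whole spread within either group. The means were 68.6 ± 4.42 and 35.0 ± 2.18 (SD, n = 3 each), a knockout level of 0.510 times wild type. In a limma fit over the 11035 genes that reached 1 RPKM in 3 or more libraries, the log2 fold change (knockout minus wild type, of RPKM + 0.5) was -0.96 ± 0.10 (SE), with a Benjamini-Hochberg adjusted p of 0.00159. Recovered reads over the gene were 2530 to 2878 in wild type and 1157 to 1625 in knockout, so counting error is small beside this difference. An exact two-sided permutation test of the means gave p = 0.1, the smallest that 3 against 3 libraries allow.

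Of the 47 members that passed the filter on low values, Psmb5 was the 1 called, at an adjusted p under 0.05, lower in knockout. Among all genes tested, 1.27% were called lower, 0.671% higher and 1.94% in either direction, so the share of members called (2.13%) was near the background. The authors' deposited table has the same single member under 0.05 among the 47 it lists, Psmb5, with a log2 fold change of -0.966 and an adjusted p of 0.0104, where 1.57% of its genes are under that threshold. With unadjusted p under 0.05 there were 7 members, 14.9%, against 15.7% of all genes tested. The limma estimate of Psmb5 stayed between -1.01 and -0.91, with an adjusted p of at most 0.0124, in each of 16 other settings, which included leaving out each library in turn.

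**Figure D1:**
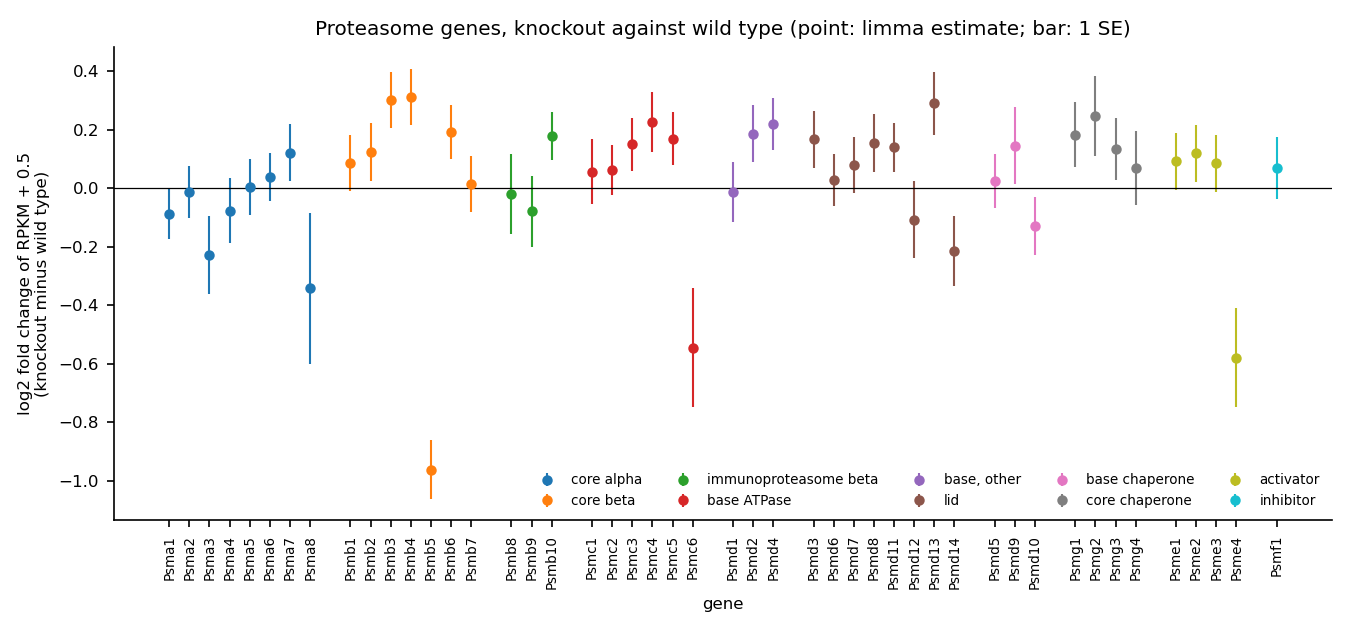
Log2 fold change of RPKM + 0.5 (knockout minus wild type) for the 47 tested proteasome genes, grouped by role; points are limma estimates and bars 1 SE. Psmb5 sits at -0.96, apart from the others, which lie between -0.58 (Psme4) and 0.31 (Psmb4).

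Psmb5 lies on the minus strand of chromosome 14 at 54614120 to 54617995 (GRCm38). Its promoter window, 250 bases before to 50 after the annotated start, is printed with those of Psmc6 and Psme4, the members with the next lowest fold changes, and of Psmb6, a constitutive partner with a positive fold change, from RefSeq (GRCm38.p6, 5′ to 3′). Capitals mark matches to TGACNNNGC on either strand, a form of the antioxidant response element through which Nfe2l1 and Nfe2l2 are known to act on proteasome genes.
Psmb5, chr14:54617946-54618245, minus strand: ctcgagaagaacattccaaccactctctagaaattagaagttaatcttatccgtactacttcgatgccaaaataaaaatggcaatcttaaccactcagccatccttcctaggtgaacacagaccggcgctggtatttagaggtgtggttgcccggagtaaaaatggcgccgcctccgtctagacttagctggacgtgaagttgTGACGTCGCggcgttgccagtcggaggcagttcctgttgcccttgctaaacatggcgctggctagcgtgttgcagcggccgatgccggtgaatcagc
Psmc6, chr14:45329574-45329873, plus strand: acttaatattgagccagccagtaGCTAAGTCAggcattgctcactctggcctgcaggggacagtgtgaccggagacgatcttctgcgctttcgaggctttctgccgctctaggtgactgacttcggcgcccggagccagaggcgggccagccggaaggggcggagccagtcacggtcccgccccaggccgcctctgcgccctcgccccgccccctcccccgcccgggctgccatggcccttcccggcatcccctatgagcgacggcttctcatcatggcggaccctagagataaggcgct
Psme4, chr11:30771525-30771824, plus strand: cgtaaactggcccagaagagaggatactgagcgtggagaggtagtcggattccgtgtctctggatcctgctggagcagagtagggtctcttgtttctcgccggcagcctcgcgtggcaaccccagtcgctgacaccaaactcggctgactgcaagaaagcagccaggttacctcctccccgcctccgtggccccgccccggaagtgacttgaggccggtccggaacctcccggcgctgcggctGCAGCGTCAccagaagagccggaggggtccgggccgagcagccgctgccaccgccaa
Psmb6, chr11:70525107-70525406, plus strand: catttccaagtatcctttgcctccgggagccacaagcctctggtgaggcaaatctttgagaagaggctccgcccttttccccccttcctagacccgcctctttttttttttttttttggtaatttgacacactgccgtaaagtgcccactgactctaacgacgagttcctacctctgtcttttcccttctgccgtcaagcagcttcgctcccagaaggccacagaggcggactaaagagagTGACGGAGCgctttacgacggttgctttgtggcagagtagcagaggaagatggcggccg

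Of 40 members matched to the promoter table, 6 hold this motif (Psmb5, Psmb6, Psmc6, Psmd9, Psmd12 and Psme4), 6 of their 43 windows, against 12.4% of all 32851 windows. The log2 fold changes of these 6 were -0.96, 0.19, -0.55, 0.15, -0.11 and -0.58 in that order. Genes with the motif thus had fold changes of both signs. The windows printed above, that of Psmb6 included, all come from genes with the motif. In Psmb5 the match TGACGTCGC contains TGACGTC, which overlaps the core of a cyclic AMP response element. Other motifs searched on both strands were the interferon response element, searched as GAAA, 2 free bases and GAAA, in 11.6% of member windows and 3.44% of all windows (Psmb3, Psmd4, Psmd9, Psme1 and Psmg4), and CCAAT, in 32.6% and 37.4%. A match is a description of the letters, not a bound site.

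The other constitutive beta genes were examined beside Psmb5, since each core needs equal numbers of every subunit. Psmb6, of the caspase-like subunit, was at 318, 276 and 305 RPKM in wild type and at 355, 350 and 321 in knockout (limma adjusted p = 0.349). The knockout values lay above those of wild type by a narrow margin. Psmb7, of the trypsin-like subunit, was at 159, 133 and 148 RPKM in wild type and 156, 143 and 145 in knockout, with the groups interleaved (adjusted p = 0.949, log2 fold change 0.02; with GC and length trends taken out, 0.30 and adjusted p = 0.152). Psmb4, an inactive subunit that closes the beta ring, was at 140, 159 and 171 RPKM and at 196, 199 and 188, and Psmb3, another inactive subunit, at 66.6, 65.1 and 72.8 and at 86.1, 88.7 and 77.7. Both were higher in every knockout library than in any wild-type library, with log2 fold changes of 0.31 and 0.30, and neither passed the test (adjusted p = 0.164 and 0.178 in limma). Psmb1 (260 ± 24.0 in wild type and 276 ± 10.8 in knockout) and Psmb2 (405 ± 42.4 and 440 ± 5.84) were not called either.

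Psmb5 was thus measured against the rest of its own ring in each library. Its RPKM divided by the median of the 6 other constitutive beta genes was 0.320, 0.325 and 0.327 in the wild-type libraries and 0.148, 0.154 and 0.144 in the knockout libraries. The quotient varied less between libraries of a genotype (SD 0.00397 and 0.00501) than it differed between genotypes, by -0.175. Per length, Psmb5 and Psmb3 had the lowest mean RPKM of the 7 constitutive beta genes in wild type (68.6 and 68.2), and Psmb5 the lowest in knockout.

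**Figure D2:**
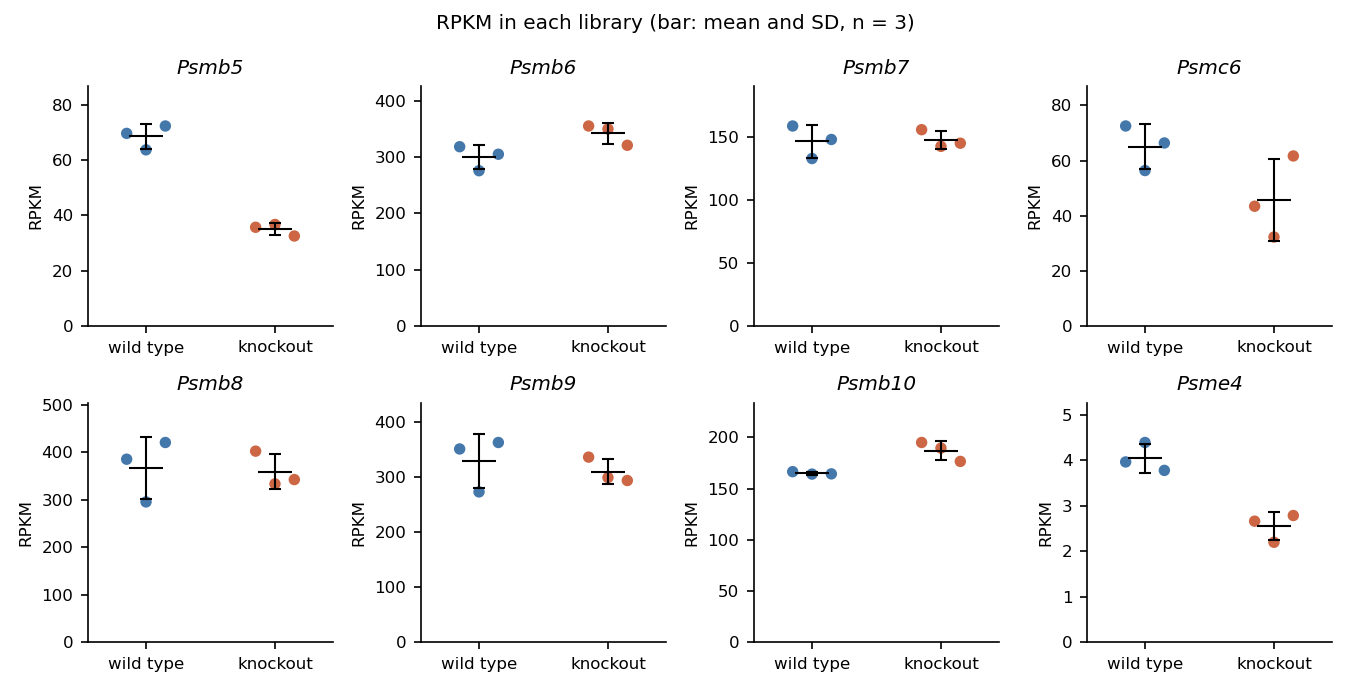
RPKM of 8 proteasome genes in each library (points; blue wild type, orange knockout), with group mean and SD (n = 3). Psmb5 separates into 63.7 to 72.3 and 32.5 to 36.7, while Psmb7, Psmb8, Psmb9 and Psmc6 overlap between genotypes.

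The immunoproteasome genes were abundant in these CD45- cells and were not called. Psmb8, whose product takes the place of the Psmb5 subunit, was at 385, 296 and 421 RPKM in wild type and 402, 334 and 343 in knockout (log2 fold change -0.02 ± 0.14 SE, adjusted p = 0.953). Psmb9, the counterpart of Psmb6 and a neighbour of Psmb8 in the MHC region of chromosome 17, was at 352, 274 and 363 RPKM and at 337, 300 and 294 (-0.08 ± 0.12 SE, adjusted p = 0.774). WT 3 was the lowest library for both genes, and the genotypes overlapped. Psmb10, the counterpart of Psmb7, was at 167, 164 and 165 RPKM and at 195, 190 and 177, higher in every knockout library, with a log2 fold change of 0.18 ± 0.08 SE and an adjusted p of 0.333 in limma. Psmb11, the thymus-specific relative that lies beside Psmb5, had 0, 0 and 2 reads in wild type and 0, 0 and 1 in knockout, and was the 1 member left out by the filter.

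With RPKM per length, the balance between the 2 genes of each active site can be given for each library. Psmb8 made up 84.7%, 82.3% and 85.3% of the summed RPKM of Psmb8 and Psmb5 in the wild-type libraries and 91.9%, 90.1% and 91.3% in the knockout libraries. The quotient of Psmb8 to Psmb5 went from 5.33 ± 0.614 to 10.3 ± 1.11 (n = 3 each), without overlap, and the sum of both genes overlapped (359 to 493 and 370 to 438 RPKM). At the caspase-like site the balance lay the other way, with Psmb9 at 52.5%, 49.8% and 54.4% of the sum with Psmb6 in wild type and 48.7%, 46.1% and 47.8% in knockout, again without overlap. Psmb10 was at 51.2%, 55.2% and 52.6% of the sum with Psmb7 in wild type and 55.6%, 57.0% and 54.9% in knockout, where WT 3 lay within the knockout range. These quotients combine several members and were given no test. They describe transcripts, and the make-up of assembled proteasomes was not measured.

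**Figure D3:**
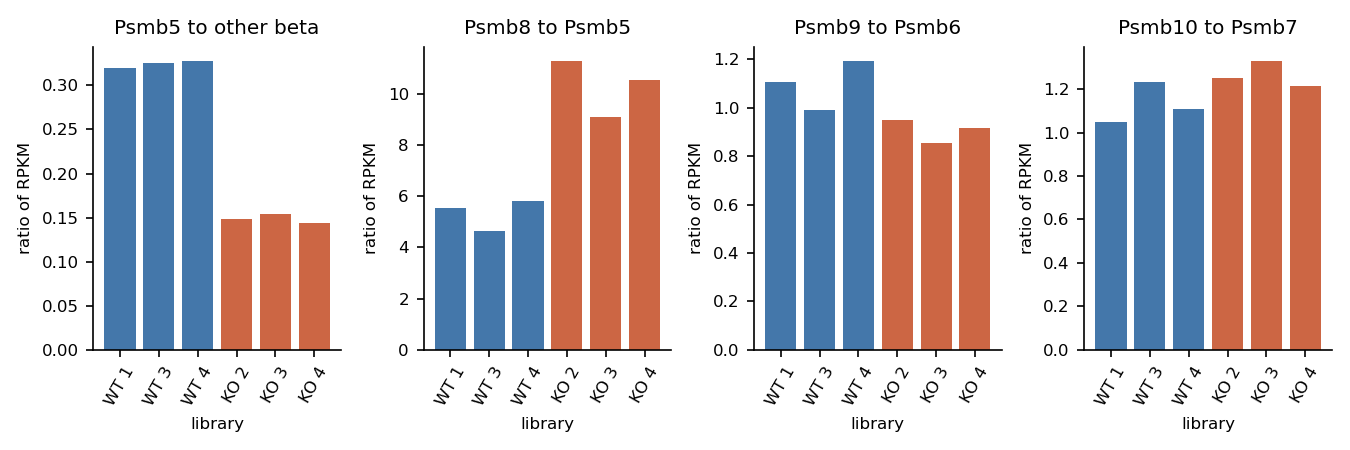
Quotients of RPKM in each library (bars; blue wild type, orange knockout): Psmb5 over the median of the 6 other constitutive beta genes, and each immunoproteasome gene over its constitutive counterpart. The first goes from about 0.324 to 0.149 and Psmb8 to Psmb5 from 5.33 to 10.3 (group means), while Psmb10 to Psmb7 overlaps between genotypes.

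None of the alpha subunit genes was called. Among the 7 constitutive ones, mean RPKM ranged from 31.1 (Psma3) to 384 (Psma7) in wild type and from 26.5 to 417 in knockout, and their sum was 1180 to 1356 RPKM in wild type and 1281 to 1308 in knockout. The genotypes overlapped in the sum and in each gene. Their log2 fold changes ran from -0.23 (Psma3) to 0.12 (Psma7). Psma8, which replaces Psma7 in male germ cells, was at 1.57 to 4.07 RPKM over all libraries, with the genotypes overlapping (-0.34, adjusted p = 0.540 in limma). Although the core holds its subunits in equal numbers, the 14 constitutive core transcripts spanned 13.0-fold in wild type. RefSeq lists pseudogenes of Psma5, Psmb5, Psmb6 and Psmb7 and the retrocopy Psme2b of Psme2, none of which has a row of its own in the table. Levels of these 5 genes are uncertain to the extent that reads could be shared with the copies. For Psmb5 the copy is Psmb5-ps on chromosome 11, at 102659055 to 102659929.

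In the base of the cap, 5 of the 6 ATPase genes had positive log2 fold changes, up to 0.23 for Psmc4 (group means 158 ± 12.7 and 185 ± 15.5 RPKM, adjusted p = 0.318 in limma). Psmc4 itself was at 165, 143 and 165 RPKM in wild type and at 193, 194 and 167 in knockout, where KO 4 lay just above the highest wild-type library. The exception was Psmc6, with 72.6, 56.4 and 66.4 RPKM in wild type against 43.4, 32.3 and 61.7 in knockout. KO 4 lay within the wild-type range and the other knockout libraries below it. Its estimate was -0.55 ± 0.20 SE on the log2 scale (adjusted p = 0.242). Without KO 3 it was -0.32, and without KO 4 it was called (-0.78, adjusted p = 0.0393, in a fit where 3.17% of genes were called lower and 0.539% higher). With GC and length trends taken out it was -0.10 (adjusted p = 0.681).

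Of the non-ATPase base genes, Psmd4, which encodes a ubiquitin receptor, was at 239, 226 and 238 RPKM in wild type and at 290, 276 and 254 in knockout (adjusted p = 0.268, log2 fold change 0.22). Psmd2, a scaffold of the base, was higher in every knockout library too (85.3 ± 7.65 and 96.9 ± 4.01, adjusted p = 0.386), and Psmd1, the other scaffold, was not (86.4 ± 7.94 and 85.6 ± 6.39). In the lid, Psmd13 was at 67.5, 72.4 and 66.5 RPKM in wild type and 95.4, 83.5 and 74.9 in knockout (0.29 ± 0.11 SE, adjusted p = 0.237). Psmd14, the deubiquitinase of the lid, was at 68.8 ± 7.89 and 59.1 ± 6.24 (-0.22, adjusted p = 0.408). All 8 lid genes were uncalled, with log2 fold changes between these values and 6 of 8 positive.

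Among the regulators that can replace the cap, Psme1 and Psme2, whose products form an interferon-inducible activator, were at 454, 396 and 424 and at 109, 103 and 125 RPKM in wild type. In knockout they were at 482, 464 and 414 and at 124, 119 and 122, overlapping wild type (adjusted p = 0.658 and 0.566 in limma). Psme3, the nuclear activator, was at 41.2, 43.6 and 46.2 RPKM and at 48.5, 46.5 and 44.1 (adjusted p = 0.684). Psme4, which encodes an activator linked to histone degradation, was low, at 3.97, 4.40 and 3.78 RPKM in wild type and 2.67, 2.20 and 2.79 in knockout. Its groups did not overlap, and its log2 fold change of -0.58 ± 0.17 SE had an adjusted p of 0.140. The inhibitor Psmf1 was at 20.4, 19.3 and 20.1 RPKM and at 22.0, 20.4 and 20.5 (adjusted p = 0.766). The assembly chaperones of the core (Psmg1 to Psmg4) and of the base (Psmd5, Psmd9 and Psmd10) were at 24.4 to 76.8 RPKM over all libraries and 0 of 7 were called in limma (0 at an unadjusted p under 0.05).

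Across the members, small positive differences were common. Knockout lay above wild type without overlap for 12 of the 47 (25.5%), where 10.7% of all genes tested did, and below it for 3, Psmb5, Psme4 and Psmd10 (6.38%, against 9.57%). The median log2 fold change was 0.08 over members and 0.03 over all genes tested, and 33 of 47 (70.2%) were positive, against 54.3% of all genes. This lean changed with the setting: after quantile normalization 26 of 47 were positive and the median was 0.02, below the 0.04 of all genes tested. With GC and length trends taken out it was 39 of 47, with a median of 0.09 against 0.04 for all genes. Leaving out 1 library gave 27 of 47 (without WT 3) to 36 of 47 (without WT 4). The replicate spread of members was smaller than that of all genes tested. Their median coefficient of variation was 7.77% in wild type and 5.40% in knockout, against 13.5% and 10.6%. Members were also more abundant, with a median of mean levels of 94.1 RPKM against 12.0 for all genes tested. The part of abundance in this spread, and in the shares without overlap, was not tested.

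The fold changes moved with base composition. Of the 22 members whose longest transcript holds at least 50% G and C, 19 were positive, and of the 25 below that 14 were (medians 0.15 and 0.02). Over all genes tested with a GC value, 71.8% were positive at or above 50% and 37.3% below. Spearman's rho of fold change on GC content, across genes that share the same 6 libraries, was 0.52 over the 47 members and 0.45 over 10041 genes. With GC and length trends taken out, more members were positive (39 of 47) than before (33 of 47). Psmb5 went against the GC trend, with 56.6% GC and the lowest fold change, and its estimate with GC and length trends taken out was -1.01 (adjusted p = 0.000478). Psme4 (43.9% GC) was then at -0.41 (adjusted p = 0.186).

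**Figure D4:**
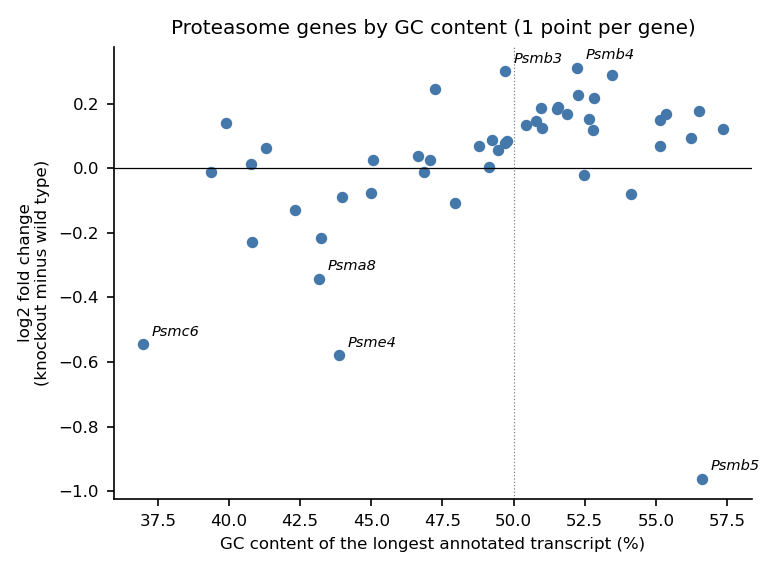
Log2 fold change (knockout minus wild type) of the 47 tested members against the GC content of their longest annotated transcript (1 point per gene, dotted line at 50%). Fold changes tend to rise with GC content (rho 0.52), while Psmb5, at 56.6% GC, has the lowest fold change.

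Psmb5 shares chromosome 14 with Stab1, 23.4 Mb away, and 5 more members lie on that chromosome. Psmd6, of the lid, is 17.0 Mb from Stab1 on its other side and was at 135, 121 and 123 RPKM in wild type and 128, 123 and 135 in knockout, overlapping (adjusted p = 0.903, log2 fold change 0.03). Psmc6 is 14.2 Mb away, Psmb11 is next to Psmb5, and Psme1 and Psme2 are 24.4 Mb away. Among these, Psmb5 alone was called. On chromosome 14, 7.92% of tested genes were called in either direction and 2.73% lower, against 1.73% in either direction on the other chromosomes.

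Within 500 kb of Psmb5, 21 other genes were tested and 4 were called (19%), all higher in knockout, opposite to Psmb5. Chosen after their values were seen, these were the amino acid transporter gene Slc7a8 (104 kb from Psmb5, 15.5 ± 2.82 to 61.6 ± 7.27 RPKM, log2 fold change 1.97), its relative Slc7a7 (194 kb, 0.50), Oxa1l, which encodes a mitochondrial membrane insertase (244 kb, 0.88), and the lipase gene Abhd4 (345 kb, 0.83). The genes closest to Psmb5 on either side that passed the filter were not called. The transcript 4931414P19Rik, 8.02 kb away, was at 1.56 ± 0.258 and 2.64 ± 0.160 RPKM (0.61, adjusted p = 0.141) and Acin1, 24.2 kb away, at 7.09 and 7.02 (-0.01, adjusted p = 0.983). Jub, 36.5 kb away, had a log2 fold change near that of Psmb5 (-1.04 ± 0.28 SE) and missed the threshold (adjusted p = 0.108). The Stab1 deletion and any difference in the chromosome segment inherited with it cannot be told apart in this design.

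**Figure D5:**
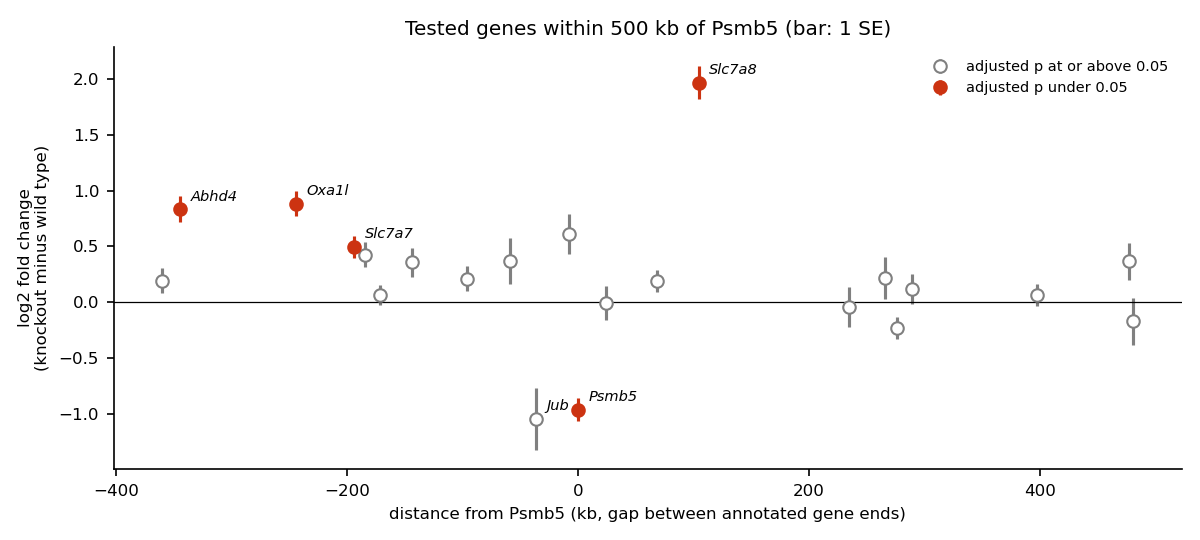
Log2 fold change (knockout minus wild type, bar 1 SE) of Psmb5 and the 21 other tested genes within 500 kb, by distance in kb; filled red points passed an adjusted p of 0.05. Psmb5 at -0.96 is the 1 called gene below 0, and Slc7a8, Oxa1l, Abhd4 and Slc7a7 lie above it.

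Genes that work with the proteasome but fall outside the naming pattern were examined in the same fit. Of 34 listed partners tested, 0 were called in limma in either direction (4, or 11.8%, at an unadjusted p under 0.05, against 15.7% of all genes), and their median log2 fold change was 0.08. The core chaperone gene Pomp was at 382 ± 48.6 and 387 ± 12.3 RPKM and the ubiquitin receptor gene Adrm1 at 15.3 ± 0.593 and 16.6 ± 0.465. Nfe2l1, the transcription factor that raises proteasome genes when the proteasome is inhibited, was not called (34.9 ± 12.8 and 44.1 ± 4.75 RPKM, 0.40, adjusted p = 0.430), nor was Nfe2l2, its relative (77.1 ± 8.82 and 63.3 ± 7.64, -0.28, adjusted p = 0.293). Ngly1, which encodes an enzyme that processes the Nfe2l1 protein, was at 30.9 ± 1.81 and 25.3 ± 3.10 (-0.29, adjusted p = 0.282). Uchl5 and Ube3c, a deubiquitinase and a ligase bound to the cap, had log2 fold changes of -0.46 and 0.45 (adjusted p = 0.346 and 0.325), and the shuttle genes Ubqln1 and Zfand5 0.27 and -0.26 (0.328 and 0.391). Of the peptide loading and interferon genes, B2m was at 9564 ± 1934 and 7422 ± 684 RPKM (-0.35, adjusted p = 0.329) and the interferon regulatory factor gene Irf1 at 141 ± 18.5 and 160 ± 4.76 (0.19, adjusted p = 0.428). The ubiquitin-activating enzyme gene Uba1 was at 93.2 ± 18.3 and 117 ± 11.2 (0.35, adjusted p = 0.288). Several of these uncalled estimates moved by more than 1.5 times between settings. With GC and length trends taken out Ngly1 was at -0.034, B2m at -0.14, Uchl5 at -0.15 and Zfand5, with its sign reversed, at 0.11. Without WT 1, Ube3c was at 0.19, Uba1 at 0.19, Ubqln1 at 0.14, Irf1 at 0.07 and B2m at -0.21, and without KO 3 Uchl5 was at -0.28 and Zfand5 at -0.14.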

How the data were processed

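RNA was measured in 3 wild-type and 3 Stab1-/- libraries, made with SMART-Seq and Nextera XT, per the labels' protocols. Per the submitters' processing notes, the tools were STAR (2.5.2b), Subread, limma and edgeR and the build mm10, with no order or settings given. The authors deposited RPKM for 23337 genes; the file header names no unit, and low values are whole multiples of 1 read per gene length (17683 of 17683 genes above 0, tolerance 0.001), which gave the reads. The authors' deposited comparison table holds group means with SDs (a signal unit), signed fold changes and ranks (scores), log2 fold changes and p-values, per the file headers. Columns were assigned to genotype only, because their numbers do not match the labels' replicates.

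Values of log2(RPKM + 0.5) were fitted with limma 3.58.1 (R 4.3.3, intensity trend) for genes that reached 1 RPKM in 3 or more libraries, with Benjamini-Hochberg adjustment over all 11035 and a threshold of 0.05. Members, lists and motifs were chosen with earlier results of these data known. Per-library values are given for called members, the 10 of smallest p, active-site genes, activators and inhibitor, members on chromosome 14 and those below the filter, and of partners the 2 of smallest p per sublist; other names were chosen after their values were seen. Values of some listed genes were left out. Of 37 partner genes, 34 matched by symbol. GC content and length came from the longest GENCODE M21 transcript, positions from RefSeq (Python 3.11.15, scipy 1.17.1). The fit was tested on simulated data. Alternatives were other pseudocounts, filters, scalings, variances and weights, voom on recovered reads, GC and length removal and leaving out each library.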

Additional observations from a re-analysis of the deposited data

How the results depend on the processing

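The call of Psmb5 held in all 16 alternatives. Library quality weights, with which 1772 genes (16.1%) were called higher and 1881 (17.0%) lower, gave 9 members higher and 7 lower, and 3 partner genes higher and 6 lower, in place of 0, 1, 0 and 0. Leaving out each library in turn gave 1 to 2 members and 0 to 1 partner genes lower, the extra member being Psmc6, without KO 4, and the extra partner call coming without KO 2. Over all genes, 74 higher and 140 lower became 31 and 46 when low genes were kept, 16 and 32 without KO 3, 20 and 44 without KO 2, 45 and 39 without WT 4, 68 and 87 without WT 1, 60 and 90 without WT 3 and 59 and 347 without KO 4. Some uncalled estimates changed sign, most of them near 0. With quantile normalization Psmb7 went to -0.059, Psmd6 to -0.025 and Pomp to -0.043. With GC and length trends removed Adrm1 went to -0.016, Pomp to -0.022 and Zfand5 from -0.26 to 0.11, and with quality weights Pomp to -0.068. Leaving out each library in turn spanned 0 for Psmb7 (-0.053 to 0.074), Psmb8 (-0.17 to 0.086), Psmd6 (-0.0077 to 0.074) and Pomp (-0.083 to 0.093). The cause of these changes was not tested. In reads not divided by length, by construction of that share, Psmb8 made up 88.1% and 93.5% of the sum with Psmb5 in wild type and knockout, Psmb9 46.0% and 41.4% with Psmb6, and Psmb10 59.6% and 62.4% with Psmb7. No paired analysis was possible because the deposited columns do not carry the replicate numbers of the labels. Depth was not limiting for members other than Psmb11, which had at most 2 reads.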
